A study of Mus musculus with 24 samples.

Results

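Acyl-CoA thioesterase genes of the mouse heart are described here by 8 members of the Acot family: Acot1, Acot2, Acot4, Acot7, Acot8, Acot9, Acot11 and Acot13. The members were chosen by gene symbol, and each symbol matched 1 of the 43432 gene identifiers in the count table. The table held 5 other Acot genes (Acot3, Acot5, Acot6, Acot10 and Acot12), which are given by level only or beside the members they share sequence with. The symbols were listed after earlier results of these hearts were known. In those results the fall of Acot2 after 2 weeks and of Acot1 after 8 weeks of pressure overload had been named, so for Acot1 and Acot2 the comparisons with pressure overload, their share of each other's counts included, are a description: they are counted among the called genes but given with no p, and nothing is read from their calls.

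Acyl-CoA thioesterases cut fatty acyl-CoA, the activated form in which fatty acids are used, into a free fatty acid and coenzyme A. They run against the acyl-CoA synthetases and so set acyl-CoA and free coenzyme A levels in the cytosol, mitochondria and peroxisomes. The heart draws most of its energy from fatty acids, and several members, Acot1 and Acot2 among them, are known as targets of PPAR-alpha, the nuclear receptor that drives fatty acid oxidation genes.

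The data were counts per gene from ribosomal-RNA-depleted total RNA of C57BL/6 hearts, with 24 libraries in 6 groups of 4. Mice were sedentary (Sedentary) or ran on wheels for 8 weeks (Running). Other mice were studied 2 weeks (TAC-LVH) or 8 weeks (TAC-HF) after transverse aortic constriction, an operation that narrows the aorta and raises the pressure against which the left ventricle pumps, each beside a sham-operated group (Sham-LVH and Sham-HF). LVH and HF stand for left ventricular hypertrophy and heart failure in the labels, no group carried a transgene or a drug in the labels, and sex, age, pooling and the time after sham surgery are not given there. Nothing in the labels says that the 4 libraries of a group came from separate animals, so p-values measure the spread between these libraries. Library totals ranged from 16802939 to 39512101 counts (median 22845050), of which 5949640 to 12932067 lay outside mitochondrially encoded genes. All 8 cardiomyocyte markers, Myh6 and Tnnt2 among them, had counts in all 24 libraries.

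Acot1 and Acot2 are neighbours on chromosome 12, in a cluster ordered Acot2, Acot1, Acot4, Acot3, Acot5 and Acot6 among the Acot genes, and belong to the type I thioesterases with an alpha/beta hydrolase fold. Their coding sequences were 95.6% identical over 1236 aligned bases in the GENCODE M21 annotation, with a longest identical run of 273 bases. The main difference lies at the start, where 123 bases of Acot2 have no partner in Acot1. As background, this added start of Acot2 carries the signal for import into mitochondria, and Acot1 is cytosolic. The start of each coding sequence is shown because it separates otherwise near-identical genes whose counts are compared throughout. Both are written 5′ to 3′ on the + strand of build GRCm38 (Acot2 at chr12:83987902-83988141, Acot1 at chr12:84009510-84009626), and capitals mark bases that differ or have no partner in the other gene.
Acot2: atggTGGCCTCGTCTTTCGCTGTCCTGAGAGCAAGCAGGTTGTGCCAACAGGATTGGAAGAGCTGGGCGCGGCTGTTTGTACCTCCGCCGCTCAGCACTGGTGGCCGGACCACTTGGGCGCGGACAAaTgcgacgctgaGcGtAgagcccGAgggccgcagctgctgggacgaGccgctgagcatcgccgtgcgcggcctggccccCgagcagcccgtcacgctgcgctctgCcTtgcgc
Acot1: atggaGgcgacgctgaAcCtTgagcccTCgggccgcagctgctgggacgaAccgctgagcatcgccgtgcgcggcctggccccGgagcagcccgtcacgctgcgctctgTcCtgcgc

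Of the 31-base words in the Acot1 transcripts 22.8% occurred in other genes, mostly Acot2. The share was 37.8% for Acot2, 17.9% for Acot4, 28.6% for Acot9 (mostly its near copy Acot10) and 0% for Acot7 and Acot13. Counts of Acot1 and Acot2 are therefore uncertain to the extent that read assignment could move between them. Acot11 and Acot8 shared 19.3% and 10.8%, mostly with Fam151a (median of 0 counts) and Snx21 (median of 173 counts), which overlap them on the opposite strand. The strand setting of the counting is not given in the sources used here, so reads from the overlap of Acot8 and Snx21 cannot be told apart.

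Acot13 was the most abundant member per length and Acot4 the least. Levels between genes are given as normalised counts per kilobase of transcript (CPM per kb), scaled over all 24 libraries. In Sedentary hearts Acot13, which encodes a small hotdog-fold thioesterase at mitochondria and in the cytosol, stood at 57.8 ± 2.21 CPM per kb (SD, n = 4). Acot2 followed with 14.9 ± 2.09, and Acot7, a cytosolic enzyme for long-chain acyl-CoA, with 7.91 ± 1.69 CPM per kb. Acot9, a mitochondrial thioesterase, had 4.11 ± 0.486 CPM per kb. The libraries of each of these genes lay apart from those of the next gene in the order. Acot11 (2.11 ± 0.107), a thioesterase with a lipid-binding START domain, Acot1 (2.06 ± 0.607) and the peroxisomal Acot8 (1.89 ± 0.165 CPM per kb) overlapped from one to the next. Acot4, which encodes a peroxisomal thioesterase for succinyl-CoA, was lowest with 0.136 ± 0.056 CPM per kb.

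The order differed in TAC-LVH hearts. Acot9 (6.14 ± 0.274 CPM per kb) stood above Acot2 (5.61 ± 1.1), with overlapping libraries, and Acot1 (0.476 ± 0.18) lay below Acot8 (1.3 ± 0.263) without overlap. In TAC-HF hearts Acot2 (9.83 ± 0.971 CPM per kb) again lay above Acot9 (6.55 ± 0.504) without overlap, and Acot1 (0.77 ± 0.18) was below Acot8 (1.43 ± 0.21). Of the other family genes Acot5 had 0 counts in all 24 libraries, and Acot10 and Acot12 had at most 2 counts in any library.

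**Figure D1:**
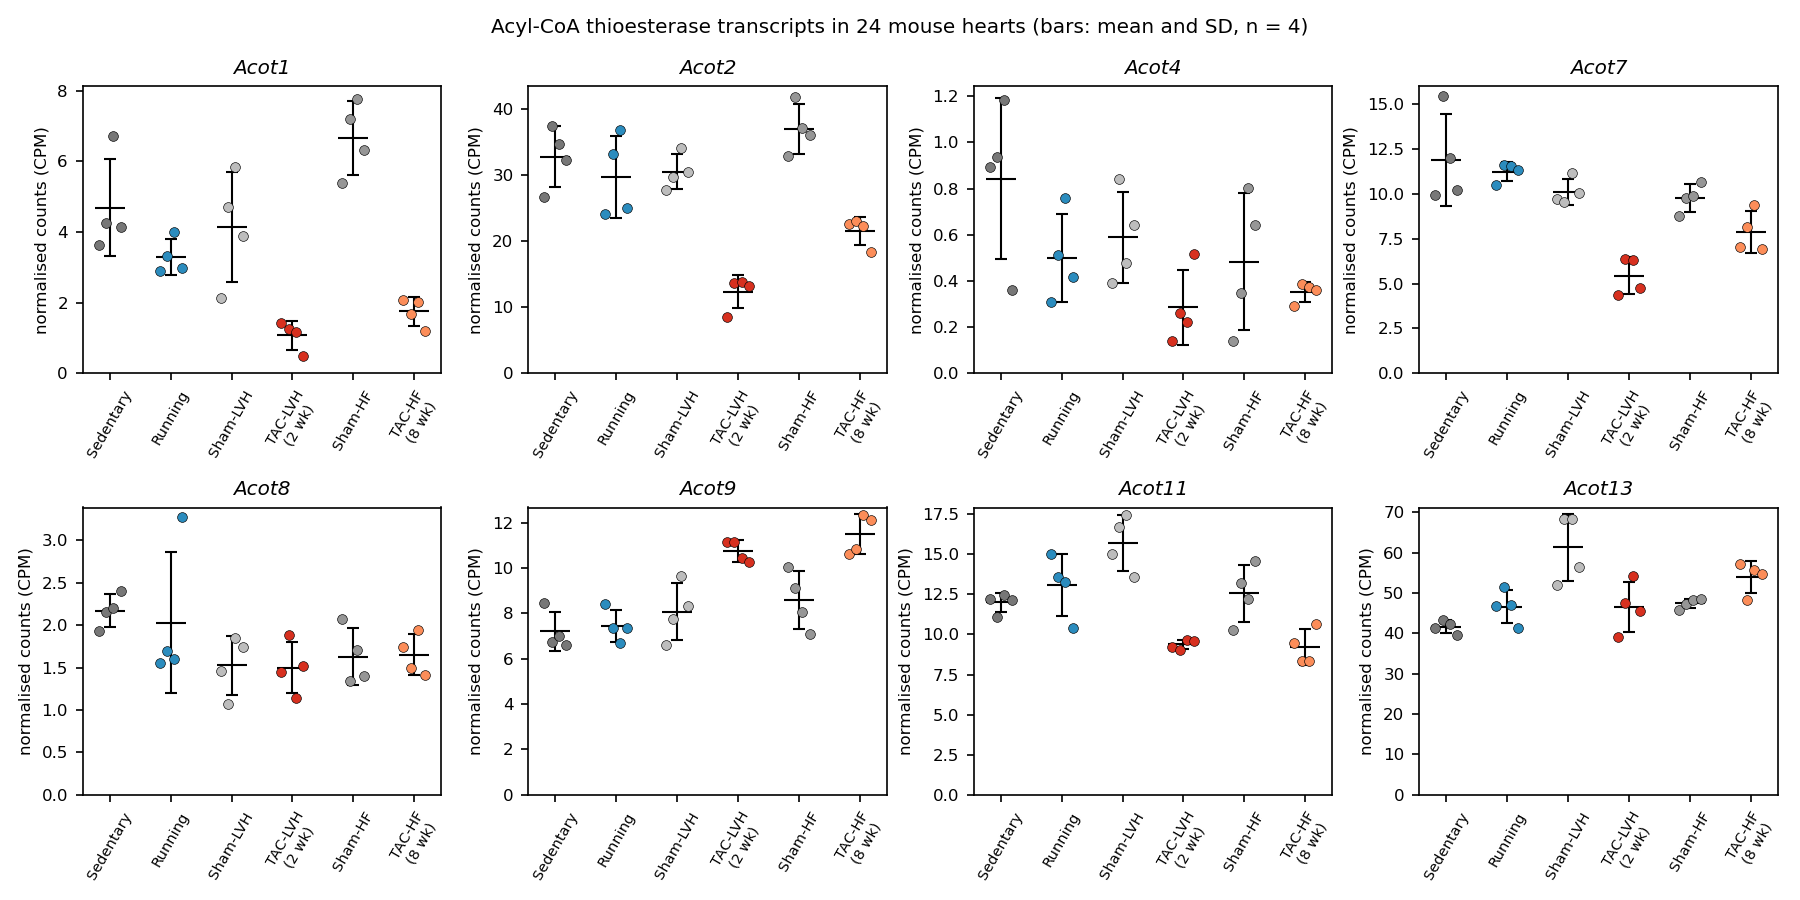
Normalised counts (CPM, linear axis from 0) of the 8 genes in each of 24 libraries, by group, with the mean and SD of 4 libraries. Acot1 and Acot2 sit lower in both TAC groups than in their shams without overlap, Acot9 sits higher, and Acot8 overlaps in each pair of groups.

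TAC for 2 weeks was compared with its sham to ask which of these genes differ in the hypertrophic stage of pressure overload. Of the 8 members, 1 rose (Acot9) and 5 fell (Acot1, Acot2, Acot7, Acot11 and Acot13), with a median log2 fold change of -0.82 against 0.00 for all genes tested. Over all 14224 genes 33.2% were called (17.1% higher, 16.1% lower; edgeR quasi-likelihood test, adjusted p under 0.05). As Acot1 and Acot2 were partly chosen on TAC comparisons, nothing is read from the count as a whole. The groups did not overlap for 5 members, against 32.4% of all genes. Leaving out each library in turn gave 5 or 6 called members. With scaling to library totals in place of normalisation factors, the median of all genes moved to 0.41. The calls of all genes moved from 2428 higher and 2289 lower to 6995 and 614, so falls are relative to the median gene. Mitochondrially encoded genes made up 50.7 to 58.4% of the counts in TAC-LVH and 59.8 to 64.5% in Sham-LVH. Their part in this shift was not tested.

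Acot1 had 1.42, 1.2, 1.2 and 0.488 CPM in the 4 TAC-LVH libraries and 2.14, 4.71, 5.83 and 3.88 CPM in the 4 Sham-LVH libraries. Every TAC-LVH library lay below every Sham-LVH library, with replicate 4 lowest among the former and replicate 1 lowest among the latter. Acot1 was 3.88-fold lower (log2 fold change -1.96, SE 0.354; raw counts 17 to 40 against 60 to 158).

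Acot2 had 8.58, 13.7, 13.8 and 13.2 CPM in TAC-LVH and 27.8, 29.7, 34.1 and 30.4 CPM in Sham-LVH. The groups lay far apart, and replicate 1 of TAC-LVH was below the other TAC-LVH libraries. Acot2 was 2.48-fold lower (log2 fold change -1.31, SE 0.139). Under library totals, where the median gene stood at 0.41, the log2 fold changes of Acot1 and Acot2 were -1.55 and -0.92.

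Acot7 had 4.36, 6.35, 6.29 and 4.73 CPM in TAC-LVH and 9.72, 9.54, 11.1 and 10.0 CPM in Sham-LVH, with no overlap. It fell 1.87-fold (log2 fold change -0.90, SE 0.137; edgeR adjusted p = 0.000252), or -0.51 under library totals (adjusted p = 0.00504). Acot11, known in mice as a brown fat gene induced by cold, had 9.25, 9.06, 9.64 and 9.58 CPM in TAC-LVH and 15.0, 16.7, 17.5 and 13.6 CPM in Sham-LVH. The TAC-LVH libraries were closely grouped and all below the shams, and Acot11 fell 1.67-fold (log2 fold change -0.74, SE 0.0974; edgeR adjusted p = 8.4e-05). Under library totals it had -0.33 (edgeR adjusted p = 0.0412).

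Acot13 had 39.1, 47.4, 54.2 and 45.5 CPM in TAC-LVH and 51.9, 68.3, 68.3 and 56.4 CPM in Sham-LVH. The groups overlapped, since TAC-LVH replicate 3 was above Sham-LVH replicate 1. The fall was 1.32-fold (log2 fold change -0.40, SE 0.122; edgeR adjusted p = 0.0223), and its call was lost without Sham-LVH replicate 2 (adjusted p = 0.0721) or 3 (0.0531), or without TAC-LVH replicate 1 (0.0668) or 4 (0.0655). With scaling to library totals its log2 fold change was -0.00 (edgeR adjusted p = 0.991).

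Acot9 had 11.2, 11.2, 10.5 and 10.2 CPM in TAC-LVH and 6.59, 7.74, 9.63 and 8.33 CPM in Sham-LVH. All TAC-LVH libraries were above all shams. Acot9 rose 1.33-fold (log2 fold change 0.41, SE 0.116; edgeR adjusted p = 0.0153), and by 0.82 under library totals.

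Peroxisomal members did not pass the test at 2 weeks. Acot8 had 1.5 ± 0.3 CPM in TAC-LVH and 1.53 ± 0.349 CPM in Sham-LVH (SD, n = 4), with a log2 fold change of -0.05 (95% interval -0.53 to 0.42; edgeR adjusted p = 0.871) that turned to 0.36 under library totals (adjusted p = 0.217). Acot4 had 4, 7, 6 and 18 counts in TAC-LVH and 11, 15, 13 and 18 counts in Sham-LVH. Its groups overlapped through TAC-LVH replicate 4, and its log2 fold change of -0.95 (SE 0.411) had an edgeR adjusted p of 0.0858, or 0.0232 without that library.

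TAC for 8 weeks was compared with its own sham to ask the same in the stage that the labels call heart failure. Of the 7 members tested, 1 rose (Acot9) and 3 fell (Acot1, Acot2 and Acot11), with a median log2 fold change of -0.33 against 0.00 for all genes. Acot4 did not pass the filter on low counts, and as at 2 weeks nothing is read from the count as a whole. Over all 13621 genes 29.6% were called (14.9% higher, 14.7% lower; edgeR), and 3 members against 29.2% of all genes had groups without overlap. Leaving out each library in turn gave 3 to 5 called members. Library totals moved the median of all genes to 0.33 and the calls from 2032 higher and 2000 lower to 6075 and 568. Mitochondrially encoded genes made up 52.7 to 57.6% of the counts in TAC-HF and 61.3 to 67.0% in Sham-HF.

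Acot1 had 2.08, 1.69, 2.03 and 1.2 CPM in TAC-HF and 5.39, 7.20, 7.76 and 6.31 CPM in Sham-HF. The highest TAC-HF library was far below the lowest sham, and the log2 fold change was -1.96 (SE 0.183), close to that at 2 weeks. Acot2 had 22.6, 23.1, 22.3 and 18.4 CPM in TAC-HF and 32.8, 41.8, 37.1 and 36.1 CPM in Sham-HF. Its groups lay apart as well, with replicate 4 lowest in TAC-HF, and Acot2 was 1.74-fold lower (log2 fold change -0.80, SE 0.0998). Under library totals the values of Acot1 and Acot2 were -1.63 and -0.47.

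Acot11 had 9.49, 8.34, 8.33 and 10.7 CPM in TAC-HF and 10.3, 13.2, 12.2 and 14.6 CPM in Sham-HF. The groups overlapped through TAC-HF replicate 4 and Sham-HF replicate 1. It fell 1.38-fold (log2 fold change -0.47, SE 0.122; edgeR adjusted p = 0.0102), a call that was lost under library totals (-0.13, adjusted p = 0.413).

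Acot9 had 10.6, 10.8, 12.3 and 12.1 CPM in TAC-HF and 10.0, 9.11, 8.07 and 7.07 CPM in Sham-HF. TAC-HF libraries were all above the shams, by a narrow margin over Sham-HF replicate 1. It rose 1.31-fold (log2 fold change 0.39, SE 0.113; edgeR adjusted p = 0.0174), and the call was lost without Sham-HF replicate 3 (adjusted p = 0.0622) or 4 (0.0653).

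Acot7 had 7.02, 8.15, 9.40 and 6.91 CPM in TAC-HF and 8.75, 9.80, 9.87 and 10.6 CPM in Sham-HF. The groups overlapped and the log2 fold change of -0.33 (SE 0.121) just missed the threshold (edgeR adjusted p = 0.0518). It passed without TAC-HF replicate 3 (adjusted p = 0.017) or Sham-HF replicate 1 (0.0335), and was -0.00 under library totals.

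Acot13 had 57.2, 48.2, 55.7 and 54.6 CPM in TAC-HF and 45.8, 47.3, 48.2 and 48.4 CPM in Sham-HF. Its log2 fold change was 0.16 (SE 0.0787; edgeR adjusted p = 0.139), and 0.49 with a call under library totals (adjusted p = 0.000748). Acot8 had 1.65 ± 0.242 and 1.63 ± 0.333 CPM (log2 fold change -0.01, 95% interval -0.45 to 0.42; edgeR adjusted p = 0.968), or 0.31 under library totals without a call. Acot4 had 6, 10, 9 and 10 counts in TAC-HF and 3, 8, 16 and 11 in Sham-HF, which overlapped.

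Acot3, a peroxisomal neighbour of Acot4 that is no member, had 1, 0, 1 and 1 counts in TAC-HF and 13, 9, 9 and 16 in Sham-HF. Its groups did not overlap, but the filter kept it out of the test at 8 weeks. In TAC-LVH it had 3, 4, 9 and 2 counts and in Sham-LVH 9, 9, 12 and 12. Acot6 had log2 fold changes of -0.44 at both times and was not called (edgeR adjusted p = 0.158 and 0.217).

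**Figure D2:**
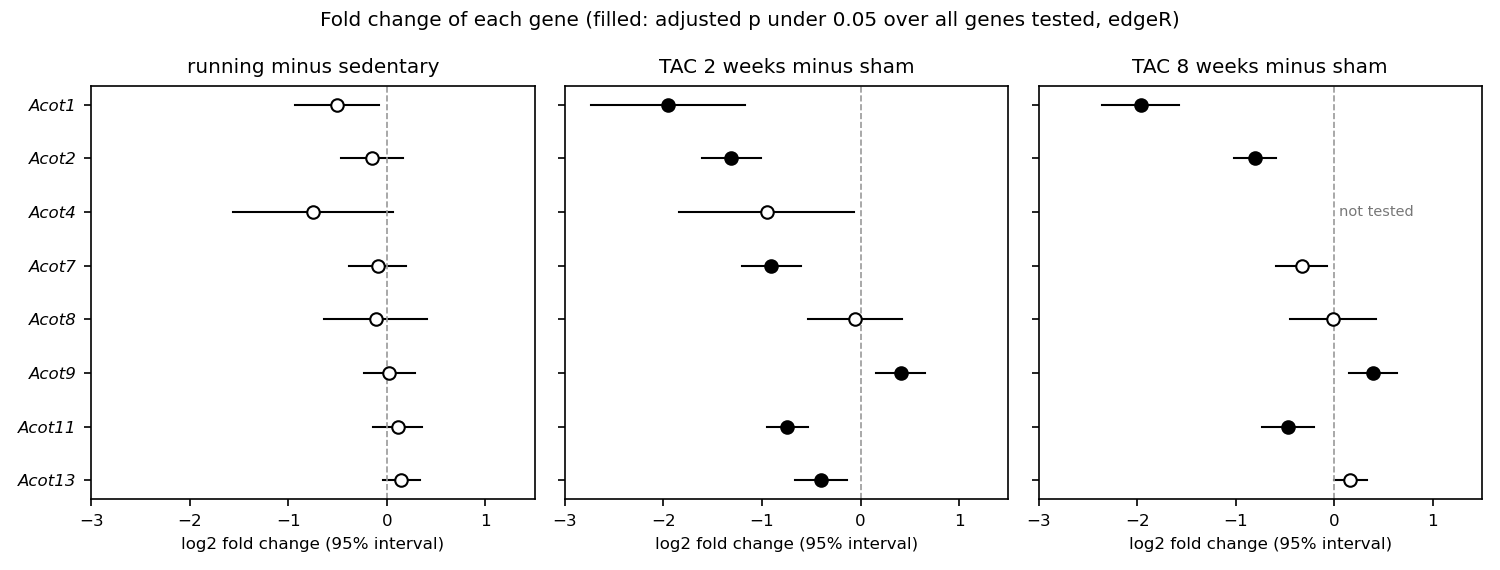
Log2 fold change of each of the 8 genes with its 95% interval in 3 comparisons, with filled points for an edgeR adjusted p under 0.05 over all genes tested. Filled points are 0 for running, 6 at 2 weeks and 4 at 8 weeks after TAC, and Acot4 was not tested at 8 weeks. Of all genes tested, 0%, 33.2% and 29.6% were called in these comparisons. Nothing is read from the filled points of Acot1 and Acot2 or from these counts of members.

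Markers of other cell types moved with TAC in the same libraries. All counts of markers below stand beside shares of all genes called by edgeR. These shares were 17.1% higher and 16.1% lower at 2 weeks, and 14.9% higher and 14.7% lower at 8 weeks. The summed level of 8 cardiomyocyte markers was 11985 to 15031 CPM in TAC-LVH against 23041 to 26231 CPM in Sham-LVH, and 17148 to 17993 CPM in TAC-HF against 24139 to 27456 CPM in Sham-HF. Of these markers 8 fell at 2 weeks and 5 at 8 weeks (edgeR). Fibroblast markers rose in 8 of 8 and 7 of 8 cases, with a summed level of 2129 to 3466 CPM against 490 to 722 CPM at 2 weeks and 1065 to 1623 CPM against 405 to 557 CPM at 8 weeks. All 8 macrophage markers rose at both times (195 to 241 against 95.2 to 146 CPM, and 119 to 171 against 67.8 to 92.2 CPM). In bulk hearts fewer cells of a type and less RNA per cell cannot be told apart.

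Endothelial markers rose in 5 of 8 cases at 2 weeks (499 to 509 against 381 to 464 CPM) and in 0 of 8 at 8 weeks (445 to 461 against 382 to 504 CPM). Of 8 smooth muscle and pericyte markers 4 rose and 1 fell at 2 weeks (735 to 791 against 724 to 794 CPM), and 2 rose and 1 fell at 8 weeks (604 to 671 against 683 to 717 CPM). The sum of 8 adipocyte markers was 5.05 to 11.2 CPM over all groups, and Ucp1 was at 0 in 23 of 24 libraries. The part of cell makeup in the thioesterase results was not tested.

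Each member was also divided by the cardiomyocyte marker sum of its own library, a ratio chosen after the data were seen. Myh6 (133726 to 369902 counts per library) and Atp2a2 (64137 to 152119) weigh most in the sum. Each other marker had at most 70729 counts in a library. The sum was lower by 0.91 on the log2 scale at 2 weeks and by 0.58 at 8 weeks. A gene with unchanged CPM would therefore stand higher by 0.91 and 0.58 on this scale. The share of all genes without overlap was not taken here, so a higher ratio or a lack of overlap is only a description. On this scale Acot2 was still lower after TAC, with log2 differences of -0.42 at 2 weeks and -0.20 at 8 weeks and no overlap between groups. Acot1 differed by -1.05 at 2 weeks, with overlap, and by -1.37 at 8 weeks, without overlap. For Acot7 the difference was -0.01 at 2 weeks and 0.26 at 8 weeks, and for Acot11 it was 0.17 and 0.13 at 2 and 8 weeks, with overlapping groups. Acot9 (1.33 and 1.01) and Acot13 (0.51 and 0.76) were higher relative to these markers, without overlap at either time. Acot8 differed by 0.89 at 2 weeks, without overlap, and by 0.61 at 8 weeks, with overlap. Acot4 differed by -0.24 and 0.40, with overlap at both times. These ratios are relative to marker RNA and not levels per cardiomyocyte. Whether the markers themselves changed within cardiomyocytes was not tested.

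The share of Acot1 in the summed counts of Acot1 and Acot2 compares both genes within a library and does not depend on library scaling. In TAC-HF it was 8.45, 6.83, 8.35 and 6.09%, and in Sham-HF it was 14.1, 14.7, 17.3 and 14.9%. Every TAC-HF library lay below every Sham-HF library. The means were 7.43% ± 1.2 and 15.2% ± 1.41 (SD, n = 4), a difference of -7.82 percentage points. It rests on the counts behind the listing of both genes and is given with no test.

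In TAC-LVH the share was 14.2, 8.31, 7.86 and 3.56%, and in Sham-LVH 7.14, 13.7, 14.6 and 11.3%. The groups overlapped, with TAC-LVH replicate 1 among the higher and Sham-LVH replicate 1 among the lower libraries (8.48% ± 4.37 against 11.7% ± 3.33; SD, n = 4). Without TAC-LVH replicate 1 the difference was -5.11 percentage points, and without replicate 4 it was -1.57, against -3.21 with all libraries. Running hearts had 10.1% ± 0.768 and Sedentary hearts 12.4% ± 2.60 (SD, n = 4; two-sided exact permutation test, p = 0.0857, or 0.129 when adjusted over 3 comparisons). The smallest p that 4 against 4 libraries allow is 0.0286, and the groups overlapped.

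When the counts of Acot1 to Acot6 were summed to 1 gene, the sum was lower with log2 fold changes of -1.31 at 2 weeks and -0.92 at 8 weeks. Acot2 makes up most of this sum, and the part of read assignment between these genes was not tested.

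**Figure D3:**
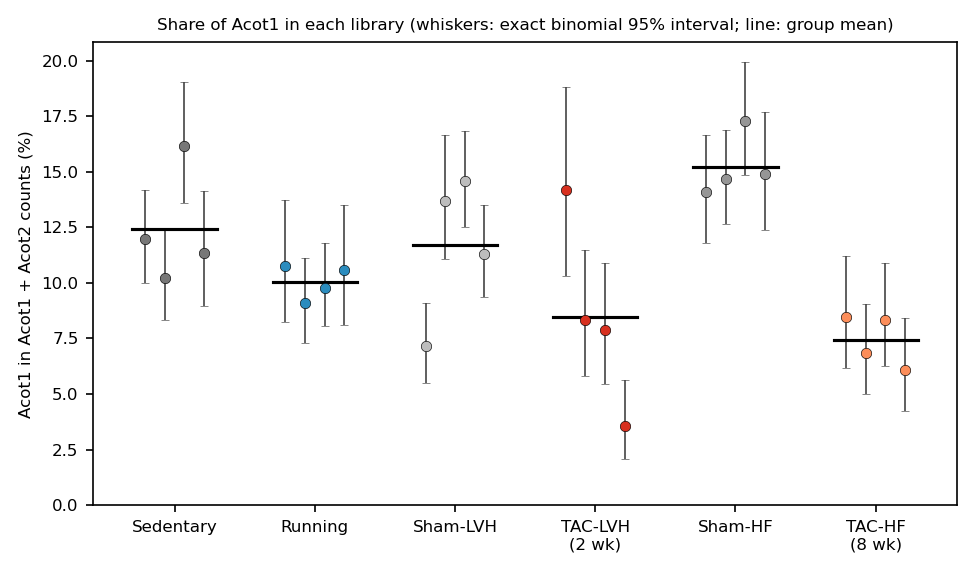
Percent of Acot1 in the Acot1 plus Acot2 counts of each library, by group, with exact binomial 95% intervals that cover counting error only and the group mean as a line. The TAC-HF libraries lie between 6.09% and 8.45% and the Sham-HF libraries between 14.1% and 17.3%.

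Running was compared with sedentary housing to ask whether the genes differ in exercise growth. No member was called: 0 of 8 by edgeR, with 1 at an unadjusted p under 0.05, and 0 by DESeq2. Over all 13824 genes 0% were called by edgeR, and 7 genes by DESeq2. All 8 members had overlapping groups, where 3.03% of all genes had none, and the median log2 fold change of the members was -0.10.

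Acot1 had 2.89, 3.31, 3.99 and 2.97 CPM in Running and 3.63, 4.26, 6.71 and 4.14 CPM in Sedentary hearts. Running libraries were mostly lower, but replicate 3 lay above Sedentary replicate 1. The log2 fold change was -0.50 (95% interval -0.93 to -0.08; edgeR adjusted p = 1.0), and Acot1 was the member with an unadjusted p under 0.05.

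Acot2 had 24.0, 33.1, 36.8 and 25.0 CPM in Running and 26.6, 37.4, 34.8 and 32.3 CPM in Sedentary hearts, which overlapped widely (log2 fold change -0.15, 95% interval -0.46 to 0.16). For Acot7, Acot9, Acot11 and Acot13 the log2 fold changes were -0.09, 0.03, 0.11 and 0.15, and their 95% intervals lay between -0.38 and 0.36. The intervals of Acot8 (-0.64 to 0.41) and Acot4 (-1.56 to 0.06) were wider. Sedentary libraries had 6 to 29 counts of Acot4 and Running libraries 6 to 19.

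Differences between the effects were tested directly, each effect being the log2 fold change against its own control group. The 2-week TAC effect was called lower than the running effect for 5 of 8 members. Of all 14729 genes, edgeR called 9.56% lower, 9.5% higher and 19.1% in either direction. The differences were -0.81 for Acot7 (SE 0.2; edgeR adjusted p = 0.00707), -0.86 for Acot11 (SE 0.151; 0.000505) and -0.55 for Acot13 (SE 0.154; 0.0161). Acot1 and Acot2 differed by -1.45 (SE 0.429) and -1.16 (SE 0.217). The call of Acot1, from which nothing is read, was lost without Sedentary replicate 1, Running replicate 3 or Sham-LVH replicate 3. Acot9 differed by 0.38 (edgeR adjusted p = 0.121). Library totals left 1 lower member (Acot2) and 1 higher (Acot9), and moved the calls of all genes from 1399 higher and 1408 lower to 4506 and 214.

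The 8-week TAC effect was called lower than the running effect for 3 of 8 members. Of all 14252 genes, edgeR called 5.35% lower, 5.74% higher and 11.1% in either direction. Acot11 differed by -0.57 (SE 0.171; edgeR adjusted p = 0.0346), Acot1 by -1.45 (SE 0.283) and Acot2 by -0.64 (SE 0.187). The calls of Acot11 and Acot2 were both lost without Sedentary replicate 4 or Running replicate 2 or 3. The same held without Sham-HF replicate 2, 3 or 4 or TAC-HF replicate 3. With each of the 16 libraries left out in turn, the call of Acot11 held 5 times. That of Acot2, from which nothing is read, held 7 times. Library totals left 1 lower member (Acot1) and 1 higher (Acot9, 0.77, edgeR adjusted p = 0.0116), with Acot2 at -0.24 and Acot11 at -0.17 (adjusted p = 0.584). They moved the calls of all genes from 818 higher and 763 lower to 3028 and 170. Both comparisons share the Running and Sedentary libraries, and in both Acot1 and Acot2 carry the values behind their listing, so nothing is read from the counts of members.

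The TAC effects at 8 and 2 weeks were also compared. No member was called (0 of 8 by edgeR, 3 at an unadjusted p under 0.05, 1 by DESeq2), and 1.36% of all 14463 genes were (0.933% higher, 0.422% lower). The difference of Acot1 was -0.00, with a 95% interval of -0.90 to 0.90. Acot13 differed by 0.57 (95% interval 0.26 to 0.87; edgeR adjusted p = 0.0577), Acot7 by 0.58 (0.18 to 0.98; 0.111) and Acot2 by 0.52 (0.14 to 0.90). The DESeq2 call was that of Acot13.

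The sham groups were compared because their levels enter these differences. No member was called (0 of 8 by edgeR, 4 at an unadjusted p under 0.05, 1 by DESeq2), against 3.64% of all 13656 genes (2.2% higher, 1.44% lower). Acot13 was 61.2 ± 8.38 CPM in Sham-LVH and 47.4 ± 1.2 CPM in Sham-HF (log2 difference -0.35, SE 0.0968; edgeR adjusted p = 0.0622). Acot1 was 4.14 ± 1.56 and 6.67 ± 1.04 CPM (0.71, SE 0.247; adjusted p = 0.130).

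Genes around the thioesterases in acyl-CoA metabolism were counted from lists that were drawn up for this purpose, with some genes in more than 1 list. The lists were chosen with earlier results of these data known. Up to 4 genes of each list are named by smallest p in the TAC comparisons, so their p-values describe a selection. Of all genes tested, 16.1% fell and 17.1% rose at 2 weeks, and 14.7% fell and 14.9% rose at 8 weeks. Of 12 tested acyl-CoA synthetase and fatty acid transport genes, 1 rose and 7 fell at 2 weeks, and 1 rose and 4 fell at 8 weeks (median log2 fold changes -0.58 and -0.33). Slc27a1, a fatty acid transport protein with synthetase activity, fell with -1.16 and -1.36 (edgeR adjusted p = 1.5e-05 and 5.67e-06). Acsl1, the main long-chain synthetase of heart muscle, fell with -1.02 and -0.37 (0.000178 and 0.00432), and the mitochondrial acetate-activating Acss1 with -0.95 and -0.72 (5.78e-06 and 2.61e-05). Acsl5 rose at both times, with 0.76 and 0.81 (edgeR adjusted p = 0.000194 and 0.000336).

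Of 16 genes of coenzyme A synthesis, breakdown and transport, 2 rose and 4 fell at 2 weeks and 2 rose and 5 fell at 8 weeks (medians -0.17 and -0.11). Slc25a42, the carrier of coenzyme A into mitochondria, fell with -1.34 and -1.32 (edgeR adjusted p = 2.47e-06 and 1.75e-05). Pank1, a pantothenate kinase at the first step of coenzyme A synthesis, fell with -0.98 and -0.78 (2.75e-05 and 2.03e-05). Nudt7, a peroxisomal hydrolase of coenzyme A, fell with -0.89 and -0.31 (0.000748 and 0.0377), and Pank4 with -0.52 and -0.49. The other 12 thioesterase genes tested outside the 8 members held 1 higher and 3 lower genes at 2 weeks and 1 higher and 2 lower at 8 weeks (medians -0.14 and -0.12). Them6 had -0.87 and -0.68 (edgeR adjusted p = 0.0108 and 0.012), while Hibch, which cuts 3-hydroxyisobutyryl-CoA, fell at 2 weeks (-0.35, edgeR adjusted p = 0.028) and had 0.17 at 8 weeks (adjusted p = 0.133).

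PPAR-alpha targets fell in 22 of 29 cases at 2 weeks and 20 of 29 at 8 weeks, and 0 rose (medians -0.85 and -0.39). Acaa2, the last enzyme of mitochondrial beta-oxidation, fell with -1.44 and -0.94, Hadha, of the trifunctional protein, with -1.10 and -0.60, the lipoprotein lipase gene Lpl with -0.98 and -0.57, and the lipid droplet gene Plin5 with -1.08 and -0.73. The edgeR adjusted p of these 4 genes lay between 1.81e-05 and 0.000872. Ucp3, a mitochondrial uncoupling protein, fell at 2 weeks (-1.90, edgeR adjusted p = 0.00148) and had -1.40 at 8 weeks (0.0672). Pdk4, which encodes a kinase that turns off pyruvate oxidation, had -0.78 and -0.31 and was not called (edgeR adjusted p = 0.129 and 0.385).

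Of 18 PPAR regulators 12 fell at 2 weeks and 13 at 8 weeks, and 0 rose (medians -0.58 and -0.45). Ppara itself fell with -1.13 and -0.60 (edgeR adjusted p = 3.66e-06 and 0.00161), and its coactivator gene Ppargc1a with -0.99 and -1.44 (1.55e-05 and 0.000595). The lipase gene Pnpla2 and the coactivator and phosphatase gene Lpin1 fell as well. Of 20 peroxisomal oxidation genes 16 fell and 0 rose at 2 weeks, and 6 fell and 1 rose at 8 weeks (medians -0.52 and -0.15). Crat, which moves acyl groups from coenzyme A to carnitine, fell with -1.05 and -0.66. None of the genes in these lists was called in running hearts, where edgeR called none of all genes.

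**Figure D4:**
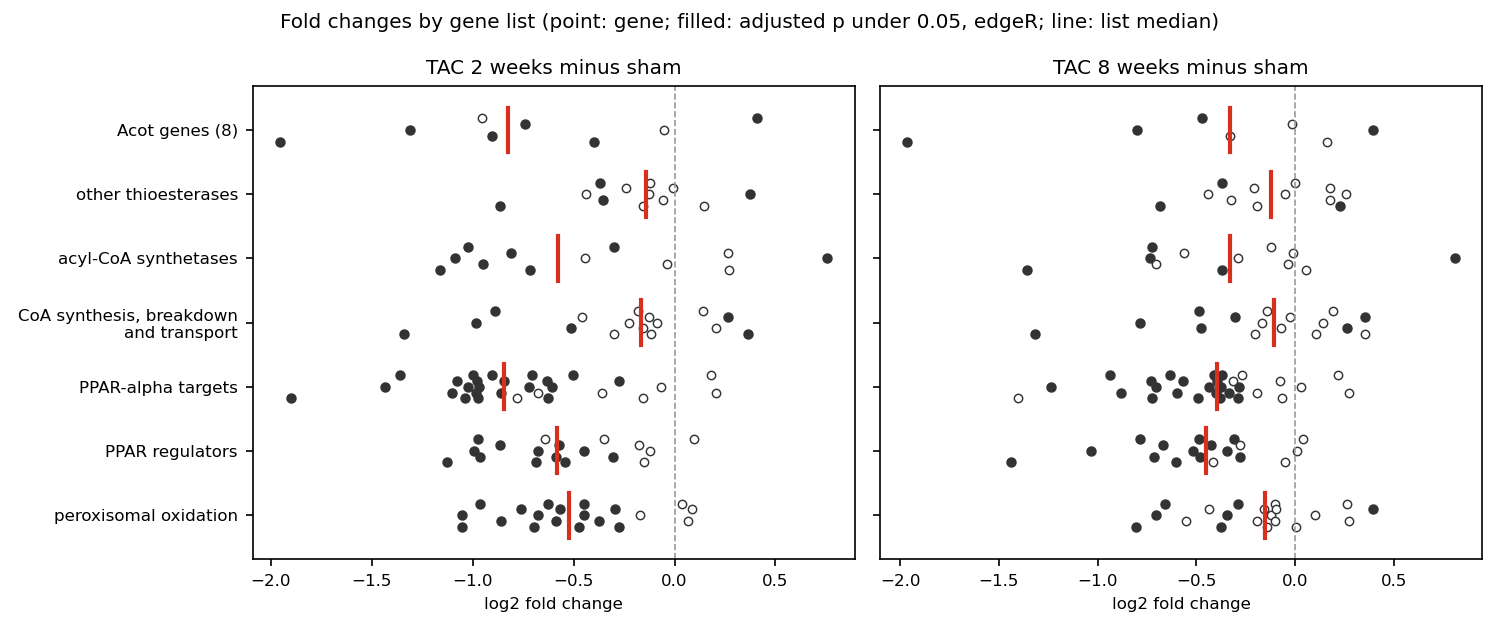
Log2 fold changes of each tested gene by list, 2 weeks (left) and 8 weeks (right) after TAC, with filled points for an edgeR adjusted p under 0.05 and a line at the list median. List medians at 2 and 8 weeks were -0.82 and -0.33 for the thioesterase members (8 and 7 tested), -0.85 and -0.39 for PPAR-alpha targets, -0.58 and -0.33 for acyl-CoA synthetases and -0.58 and -0.45 for PPAR regulators.

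The genes most like each called member were taken by Pearson's r of log2 CPM over all 24 libraries, among 10439 genes with a mean of at least 2 CPM. The libraries share groups, so r was also taken on deviations from group means, and both are descriptions. Acot2 was most like Pfkm (r = 0.978, and 0.833 on deviations), Efnb3 (0.969 and 0.890), Crat (0.969 and 0.815), Ldhb (0.969 and 0.857) and Cpt1b (0.968 and 0.879). Acot1 was most like Agpat3 (0.946 and 0.594) and Plin5 (0.915 and 0.583), followed by Hhatl and St6galnac6. On deviations, r lay between 0.815 and 0.890 for the 5 genes named for Acot2 and between 0.308 and 0.594 for the 4 named for Acot1. Acot1 had 17 to 166 counts in a library and Acot2 had 242 to 964. The part of counting error in this difference, and in r of Acot1 with other members, was not tested.

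Acot13 was most like the respiratory chain and mitochondrial genes Uqcrb (0.937 and 0.882), Cycs (0.929 and 0.896), Ndufb4 (0.924 and 0.852) and Chchd3 (0.924 and 0.915), and Churc1. Acot7 was most like Ndufa8 (0.938 and 0.718), Sod1, Pnpla2, Tbrg4 and Ybx2. Acot9 was most like Trf (0.945 and 0.830), Eif1a, S100a10, Snx1 and Serp1, and Acot11 was most like Mia2 (0.908 and 0.732), Thrb, Ppip5k2, Gm13479 and Pcdh7. Between members, r of Acot1 with Acot2 was 0.867, and 0.247 on deviations, while Acot2 with Acot7 had 0.890 and 0.647.

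Promoter windows of 300 bases around the start sites in RefSeq (build GRCm38.p6) were searched on both strands for the nuclear receptor half-site AGGTCA, held by 16.3% of 32851 windows, and for a direct pair of AGGNCA with any base between them, a form that PPAR binds, held by 0.381%. Of the 7 members with a window in that table, Acot4 held the half-site and none held the pair. Only exact matches were counted, so a pair with a mismatch, or one outside the window, would be missed.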

How the data were processed

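Total RNA was extracted with Trizol, depleted of ribosomal RNA with RiboZero and built into libraries with an NEB kit, per the labels. The table deposited by the authors gives each gene an estimated count from Salmon in whole numbers, not scaled; FastQC, Salmon and the build mm9 are named in the submitters' processing notes, while versions, annotation and strand setting were not given in the sources used here. One row that names no gene (0 counts) was left out. Symbols, transcript lengths and neighbours came by identifier from GENCODE M21 (GRCm38), which named 42462 identifiers.

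Genes were tested in edgeR 4.0.16 (R 4.3.3) with filterByExpr, TMM normalisation, a robust quasi-likelihood fit and Benjamini-Hochberg adjustment over all genes tested, called at an adjusted p under 0.05, on the libraries of the groups compared. SE and intervals are Wald values with the quasi-dispersion. CPM are scaled by TMM over all 24 libraries. The share of Acot1 in running was compared with an exact two-sided permutation test. The fits were tested on simulated counts. DESeq2 1.42.0 and 6 further settings, and each library left out, were the alternatives. The members and gene lists were chosen with earlier results of these data known. All 8 members are described, with up to 4 genes of each list by smallest p and Ppara, Ppargc1a, Pdk4, Ucp3 and Acsl1 always, and for each called member the 5 most alike genes; 2 genes that this rule takes are not reported here.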

Additional observations from a re-analysis of the deposited data

Results flagged for a closer look

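Of 54 sets of 4 libraries (a gene in a group), 3 held 1 library far from the other 3, and chance gives about 1 in 20. Acot2 was low at 8.58 CPM in TAC-LVH replicate 1 and at 18.4 CPM in TAC-HF replicate 4, and Acot8 was high at 3.28 CPM in Running replicate 4.

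Effects of TAC and of running differed by a test of the difference (edgeR) for some members. At 2 weeks the TAC effect minus the running effect was -0.81 for Acot7, -0.86 for Acot11 and -0.55 for Acot13 on the log2 scale, where 9.56% of all genes were called lower. At 8 weeks it was -0.57 for Acot11, where 5.35% of all genes were called lower. That call at 8 weeks held in 5 of 16 fits with a library left out. Under library totals none of these differences of Acot7, Acot11 and Acot13 was called. Acot1 had -1.45 at 2 weeks and -1.45 at 8 weeks, and Acot2 had -1.16 and -0.64. These differences contain the TAC values behind the listing of both genes and are a description.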

How the results depend on the processing

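Counts of called members at 2 and 8 weeks after TAC stayed within 1.5 times under every setting run, but the members behind them changed. At 8 weeks under library totals Acot11 lost its call (edgeR adjusted p = 0.413) and Acot13 was called higher (0.000748). In the setting with summed counts, 1 sum stood for Acot1, Acot2 and Acot4 alike. For the 8-week minus 2-week TAC effect the count of 0 became 1 with DESeq2, with no filter and with all 24 libraries in one fit, and ranged from 0 to 1 with a library left out. For the shams it became 1 under the same 3 settings and ranged from 0 to 1. The 2-week TAC effect minus running gave 2 in place of 5 under library totals, and the 8-week effect minus running 1 to 3 with a library left out. The difference in Acot1 share for running ranged from -3.12 to -1.14 percentage points. Divided by the cardiomyocyte marker sum, a setting chosen after seeing the data, Acot11 turned from -0.74 to 0.17 and from -0.47 to 0.13. Acot13 at 2 weeks turned from -0.40 to 0.51. These changes of sign follow from the division, since the log2 sum differed by -0.91 at 2 weeks and -0.58 at 8 weeks. Why the sum was lower was not tested.

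Counts over all genes moved by more than 1.5 times under library totals for TAC at 2 weeks (4717 to 7609), TAC at 8 weeks (4032 to 6643) and the 2-week (2807 to 4720) and 8-week (1581 to 3198) effects minus running. They also moved for running (0 called; 7 with DESeq2, 2 with no filter), for the 8-week minus 2-week effect (196; 671 with DESeq2, 30 under library totals, and 22 without Sham-LVH replicate 2 to 654 without Sham-LVH replicate 1) and for the shams (497; 848 with DESeq2, 768 with no filter, and 57 without Sham-HF replicate 3 to 1081 without Sham-LVH replicate 1). The main fits did not pair libraries by replicate number, and whether the numbers pair them is not settled. Correlations of same-numbered deviations ran from -0.20 to 0.36. The best match had the same number for replicates 1 and 2 in running. It also did for replicates 3 and 4 in TAC at 2 weeks and 2 and 3 at 8 weeks. The other replicates matched best with another number. With the replicate block the 8-week minus 2-week effect had 2 called members (656 genes in all), running had 0 (47 genes), and TAC at 2 weeks had 7. Depth limits Acot4 and Acot3, which had at most 29 counts in a library.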
